A study of Mus musculus with 4 samples.

Results

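The signal transducer and activator of transcription (STAT) genes encode the transcription factors that carry cytokine signals from receptors at the cell surface to DNA. Members were taken by symbol: Stat2, Stat3, Stat4, Stat5a, Stat5b and Stat6, which make 6 of the 50600 genes listed in each count table, and all 6 held enough counts to be among the 17337 genes tested. The study sequenced RNA of T helper 17 (Th17) cells, a class of CD4 T cell known for the cytokine interleukin 17 (IL-17), in 4 libraries that form a single group without a treated or control arm. Primary cells came from C57BL/6NJ mice of unknown age, and every library carries a time of 72 hr in its file header. The labels point to a CD4 T cell differentiation document, but the sources used here do not give the cytokines and antibodies of the culture. All 4 biosamples stand under 1 donor identifier, and whether they came from separate animals is not said, so that p-values measure only the spread between these samples, which may be technical.

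In their resting form STAT proteins lie in the cytoplasm. When a cytokine binds its receptor, Janus kinases (JAKs) attached to the receptor tails phosphorylate a tyrosine of the STAT, which then pairs with another STAT through its SH2 domain, enters the nucleus and binds DNA. In T cells each member is known for a set of cytokines: STAT3 for IL-6, IL-21 and IL-23, STAT5A and STAT5B for IL-2, IL-7, IL-9 and IL-15, STAT4 for IL-12, STAT6 for IL-4 and IL-13, and STAT2, together with IRF9, for type I interferon. STAT3 is required for Th17 cells, and STAT5 activated by IL-2 is known to restrain Il17a. The libraries measured mRNA, and phosphorylation was not measured.

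Total counts ranged from 33123029 to 37746767 per library, and 19572 to 20355 genes had a count. Counts of replicates 1, 3 and 4 differed by a chi-square of 4.64 to 7.05 per degree of freedom, against 48.8 to 54.1 for pairs with replicate 2, which therefore stood apart. Results that rest on replicate 2 are given with and without it. Levels are given in TPM, scaled to library size and corrected for gene length, and a gene is said to lie above or below 1 TPM where the test of its level passed. Of the Th17 markers 9 of 9 lay above 1 TPM, and so did 9 of 9 pan-T cell markers. The summed level of the Th17 markers was 5528 to 6287 TPM in replicates 1, 3 and 4 and 1496 TPM in replicate 2, while that of the pan-T cell markers was 3973 to 4140 TPM over the 4 libraries. Among markers of other cells, 0 of 5 B cell genes, 3 of 6 myeloid genes, 1 of 4 NK cell genes, 0 of 5 erythroid and platelet genes, 1 of 5 stromal and epithelial genes and 1 of 2 CD8 genes lay above 1 TPM. Lyz2, Ncr1, Hbb-bs, Ppbp and Krt8, which are among the markers of myeloid, NK, red blood, platelet and epithelial cells, had 0 counts in every library. The myeloid genes that passed were Cd68, Adgre1 and Cd14, at 9.46 ± 1.88, 7.96 ± 1.50 and 3.86 ± 1.15 TPM (SD, n = 4), and the stromal gene was Pdgfrb at 2.00 ± 0.785 TPM. The CD8 gene Cd8b1 had 42.0 ± 7.49 TPM while Cd8a had 6 counts over the 4 libraries. Cd79b and Epcam, at means of 1.23 and 1.31 TPM, did not pass.

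The 6 STAT genes were all expressed, at levels from 15.5 TPM for Stat2 to 341 TPM for Stat5a. Each lay above 1 TPM (6 of 6), against 70.6% of all genes tested (edgeR quasi-likelihood test of the level, Benjamini-Hochberg adjusted). None lay below 1 TPM, against 16.4% of all genes. Without replicate 2, an alternative added after seeing the data, again 6 of 6 lay above 1 TPM. In bulk RNA a lower level can mean fewer cells with the transcript or less RNA per cell, and these cannot be told apart. Together the members held 76064, 78696, 78669 and 85260 counts in replicates 1 to 4, and their summed level was 1129 ± 61.7 TPM (SD, n = 4).

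Stat5a, whose product is activated by IL-2, had the highest level. It stood at 346, 317, 345 and 355 TPM in replicates 1 to 4, a mean of 341 ± 16.7 TPM (SD, n = 4). Stat5b, which encodes the closely related second STAT5 protein, stood at 209, 180, 200.1 and 204 TPM, a mean of 198 ± 12.6 TPM. For both genes replicate 2 was the lowest library, and no Stat5a value overlapped any Stat5b value. Without replicate 2 the means were 349 ± 5.79 and 204 ± 4.42 TPM (SD, n = 3). The ratio of Stat5a to Stat5b was 1.66, 1.76, 1.72 and 1.74 in the 4 libraries, a mean of 1.72 ± 0.0441.

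Stat3, which encodes the STAT that the Th17 state requires, was second with 267, 246, 254 and 259 TPM, a mean of 256 ± 8.78 TPM (SD, n = 4). Replicate 2 was again lowest, next to replicate 3, and the mean without it was 260.0 ± 6.12 TPM (SD, n = 3). Per library Stat3 held 0.771, 0.776, 0.738 and 0.729 of the Stat5a level. The level of Stat3 ranked 695 among the 17337 genes tested and that of Stat5a ranked 460.

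Stat6 and Stat4, which encode the STATs known for directing the Th2 and Th1 fates, were also present. Stat6, the STAT of the IL-4 receptor, stood at 237, 200.3, 236 and 234 TPM, a mean of 227 ± 17.7 TPM (SD, n = 4). Stat4, the STAT of the IL-12 receptor, stood at 95.8, 81.3, 93.4 and 93.7 TPM, a mean of 91.0 ± 6.57 TPM. For both, replicates 1, 3 and 4 lay close together and replicate 2 lay below them, so that without replicate 2 the means were 236 ± 1.74 and 94.3 ± 1.28 TPM (SD, n = 3). By TPM Stat3 exceeded Stat4 by 2.82 ± 0.134 times per library, a ratio that depends on the gene length used, as given below.

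Stat2, which pairs with other STAT proteins and IRF9 in the interferon response, was the lowest member. It stood at 16.7, 13.7, 16.3 and 15.5 TPM, a mean of 15.5 ± 1.33 TPM (SD, n = 4), from 978, 928, 1016 and 1026 counts. Replicate 2 was lowest, and the mean without it was 16.1 ± 0.616 TPM (SD, n = 3). Its level was near the middle of the genes tested, at the 55.2nd percentile, while those of the other members lay between the 86.2nd percentile for Stat4 and the 97.4th for Stat5a. Stat5a exceeded Stat2 by 22 ± 1.23 times per library.

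**Figure D1:**
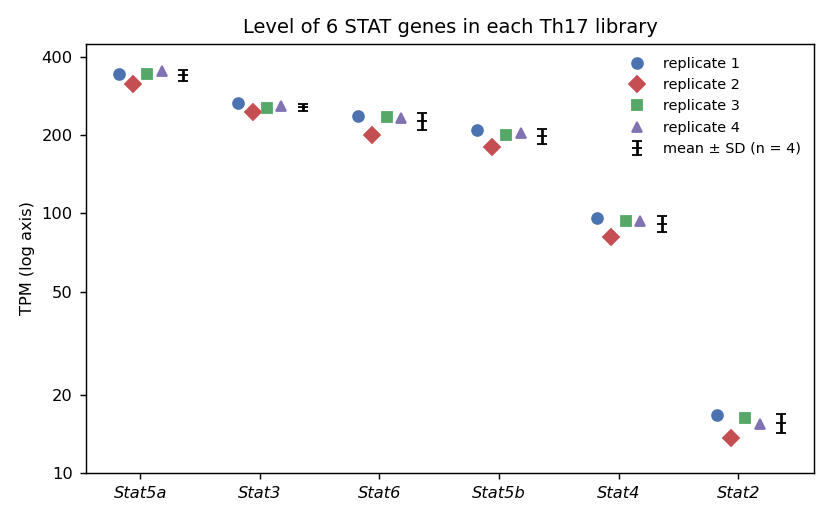
TPM (log axis) of the 6 STAT genes in each of 4 Th17 libraries, with the mean and SD beside the points (n = 4). The order from Stat5a at 341 TPM to Stat2 at 15.5 TPM is the same in every library, and replicate 2 (diamonds) is the lowest point of each gene.

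The order of the members was the same in 4 of 4 libraries for all 15 pairs of genes. The exact two-sided sign-flip test gave p = 0.125 for each pair, before and after Benjamini-Hochberg adjustment over the 15 pairs, and 0.125 is the smallest p that 4 libraries allow. On the log2 TPM scale the steps down the order were 0.41 ± 0.04 from Stat5a to Stat3, 0.18 ± 0.08 from Stat3 to Stat6, 0.19 ± 0.03 from Stat6 to Stat5b, 1.12 ± 0.02 from Stat5b to Stat4 and 2.55 ± 0.04 from Stat4 to Stat2 (mean ± SD of the difference within a library, n = 4). Stat6 and Stat5b were the only pair whose values overlapped between libraries, since the lowest Stat6 value was 200.3 TPM and the highest Stat5b value 209 TPM. Leaving out replicate 2 kept the direction of all 15 pairs.

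The steps among Stat5a, Stat3, Stat6 and Stat5b, and the distance of Stat3 and Stat5a from Stat4, depended on the gene length that counts were divided by. TPM used the summed exon length of each gene, which was 9527 bases for Stat3, 7133 for Stat5a, 5926 for Stat2, 5539 for Stat5b, 4402 for Stat6 and 3872 for Stat4. For each gene the transcript with the longest coding sequence was shorter than that sum. It had 4516 bases for Stat3, 3605 for Stat5a, 4397 for Stat2, 5062 for Stat5b, 3775 for Stat6 and 2982 for Stat4. The longest coding length in the GENCODE annotation, an alternative chosen after seeing the data, was 2310 bases for Stat3, 2391 for Stat5a, 2358 for Stat5b, 2511 for Stat6, 2244 for Stat4 and 2769 for Stat2.

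With coding length, Stat3 stood 0.058 above Stat5a and Stat5b stood 0.23 above Stat6 on the log2 scale, the reverse of both orders by TPM. The counts still covered all exon bases, of which coding bases are only a part, so this length does not match the counted bases. The summed exon length in turn exceeds the transcript lengths given above, most of all for Stat3 and Stat5a. Levels by transcript length were not computed. By coding length the distance of Stat3 above Stat6 grew from 0.18 to 1.41. That of Stat5a above Stat6 grew from 0.59 to 1.36 and that of Stat3 above Stat4 from 1.50 to 2.75. Stat3 and Stat5a then formed a pair 1.13 or more above Stat5b and Stat6, a step that the TPM values do not show. Stat4 and Stat2 were the lowest members, in that order, by both lengths.

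The shares of the members in their summed level had SDs below 1 percentage point. Stat5a took 30.2 ± 0.481%, Stat3 22.7 ± 0.661%, Stat6 20.1 ± 0.547%, Stat5b 17.6 ± 0.199%, Stat4 8.06 ± 0.157% and Stat2 1.37 ± 0.0575% of the summed TPM (SD, n = 4). The share of Stat3 was higher in replicate 2 than elsewhere, at 23.7% against 22.2% to 22.8% in the other libraries. The share of Stat6 was lowest there, at 19.3% against 20.1% to 20.6%.

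Stat5a and Stat5b lie side by side and are near copies, which bears on how surely their reads were assigned. On mm10, Stat5b (ENSMUSG00000020919.11) spans bases 100780731 to 100850724 of chromosome 11 on the minus strand, Stat5a (ENSMUSG00000004043.14) bases 100859351 to 100885169 on the plus strand, and Stat3 (ENSMUSG00000004040.16) bases 100885098 to 100939540 on the minus strand. The 3 genes fill 158.81 kb with 0 other protein-coding genes between them. The 5′ ends of Stat5b and Stat5a face away from each other across 8626 bases, and the 3′ ends of Stat5a and Stat3 overlap on opposite strands. Counting was strand-specific per the file headers, so reads of that overlap could be told apart by strand.

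The longest coding sequences of Stat5a and Stat5b were identical at 2080 of 2291 aligned bases, or 90.8%. The other 14 pairs of members shared 58.2% to 65.3%, and none of those pairs held an identical run longer than 23 bases. Between Stat5a and Stat5b the longest identical run was 324 bases, from coding base 571 to 894 in both genes, and 608 of the 2342 windows of 50 bases in Stat5a (26.0%) also occurred in Stat5b. No other pair shared a window of 50 bases. The start of the run is shown because a read inside it matches both genes, so that its pair can be placed only where the mate reaches bases that differ. Coding bases 546 to 670 of each gene are given 5′ to 3′ on the coding strand, and capitals mark the first 100 bases of the run:
Stat5a: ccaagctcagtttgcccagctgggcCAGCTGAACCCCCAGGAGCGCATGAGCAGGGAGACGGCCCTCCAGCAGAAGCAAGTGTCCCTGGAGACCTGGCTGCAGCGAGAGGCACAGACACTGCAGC
Stat5b: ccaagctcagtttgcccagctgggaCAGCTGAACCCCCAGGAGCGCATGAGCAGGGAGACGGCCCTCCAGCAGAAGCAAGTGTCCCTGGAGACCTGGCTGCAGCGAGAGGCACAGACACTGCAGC

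The 3′ ends of the 2 coding sequences differ. The last 60 coding bases before the stop codon are shown because only 17 of them match when the ends are set side by side without gaps, 5′ to 3′ on the coding strand:
Stat5a: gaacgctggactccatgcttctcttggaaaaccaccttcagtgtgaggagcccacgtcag
Stat5b: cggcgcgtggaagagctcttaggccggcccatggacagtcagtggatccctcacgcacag

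No setting for multi-mapping reads appears in the counting command that the file headers record. By default the counter drops them, and the loss would fall on both genes, so the levels of Stat5a and Stat5b are less certain than those of the other members. When the counts of the pair were summed as a single gene, the change in replicate 2 was −0.09 on the log2 scale (edgeR, adjusted p = 0.127).

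**Figure D2:**
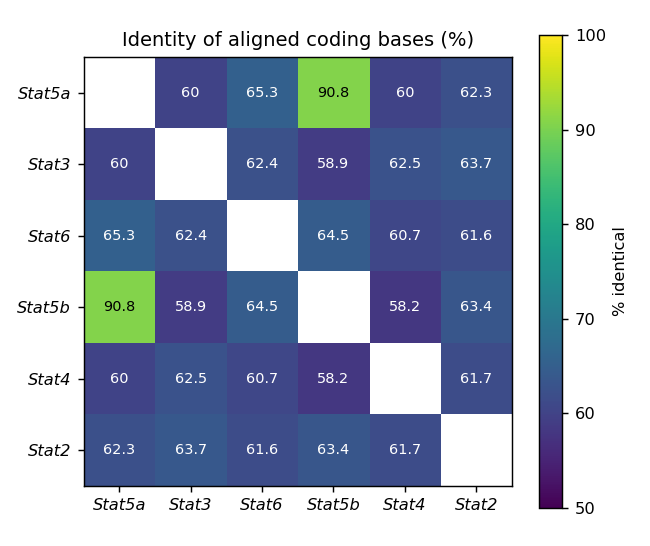
Percent of aligned bases that are identical between the longest coding sequences of each pair of STAT genes. Stat5a and Stat5b share 90.8%, and the other 14 pairs share 58.2% to 65.3%.

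The other members lie elsewhere on mm10. Stat6 (ENSMUSG00000002147.18) spans bases 127642986 to 127660957 and Stat2 (ENSMUSG00000040033.16) bases 128270559 to 128292849 of chromosome 10, both on the plus strand and 609.6 kb apart. Stat4 (ENSMUSG00000062939.11) spans bases 51987148 to 52107189 of chromosome 1 on the plus strand. All 6 are protein-coding genes, with 18 to 24 exons in the transcript that holds the longest coding sequence.

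The promoters of the members were searched for the letters that STAT proteins bind, since several STAT genes are known to respond to cytokines themselves. RefSeq promoters on GRCm38.p6, each of 300 bases from 250 before to 50 after a start, matched all 6 members with 9 promoters. The letters TTCNNNGAA, which STAT dimers bind, occurred in 0 of the 9, against 8.3% of 32851 mouse promoters of the same length. The same ends with 4 bases between them, a spacing preferred by STAT6, occurred in 1 of the 9 (Stat2), against 6.95%. The letters GAAA, any 2 bases and GAAA again, which STAT2 binds with IRF9, occurred in 2 of the 9, those of Stat2 and the second promoter of Stat4, against 3.44%. Each search covered both strands, and the motifs can overlap. A match is a description of letters and not a measured binding site.

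The 2 windows with the paired GAAA are shown because they hold the letters bound by the complex that Stat2 itself encodes part of. Both are on the plus strand of GRCm38.p6, 5′ to 3′, and capitals mark the match. That of Stat2 lies at chr10:128270251-128270310, with the motif on the opposite strand 222 to 213 bases before the start. That of Stat4 lies at chr1:52008118-52008177, with the motif 97 to 88 bases before the second start:
Stat2: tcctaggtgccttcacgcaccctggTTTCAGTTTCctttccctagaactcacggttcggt
Stat4: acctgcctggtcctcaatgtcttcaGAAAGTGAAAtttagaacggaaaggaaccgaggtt

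With no control arm, the comparisons the design allows are between libraries. Each library was set against the other 3 on counts normalized by the trimmed mean of M-values (TMM), given as CPM, which scales counts to library size but not to gene length. Such a comparison is between libraries and not conditions, and the lone library is assumed to vary like the others. The question was whether the STAT genes took part in the departure of replicate 2.

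In replicate 2 all 6 STAT genes had negative log2 differences, between −0.18 and −0.02, and 2 of the 6 passed the test as lower: Stat6 and Stat4. Of all genes tested, 22.5% passed in replicate 2 (edgeR quasi-likelihood test, Benjamini-Hochberg adjusted), 11.7% as higher and 10.9% as lower. Among the 10226 genes with a mean of at least 5 TPM, 31.1% passed, 16.6% as higher and 14.5% as lower. The median change of the members was −0.14 on the log2 scale, against −0.01 over all genes tested, of which 50.9% were lower. In absolute size 59.5% of all genes changed at least as much as Stat6.

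Stat6 had 311, 273, 308 and 304 normalized CPM in replicates 1 to 4. Replicate 2 lay below the other 3, which averaged 307 ± 3.59 (SD, n = 3). The log2 change was −0.17 ± 0.05 (SE; edgeR adjusted p = 0.0101), and DESeq2 gave an adjusted p of 0.00282. Over all alternatives of this comparison the adjusted p ran from 0.00282 to 0.0108.

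Stat4 had 110.3, 97.4, 108 and 107 normalized CPM, again with replicate 2 alone below the rest, which averaged 108 ± 1.77. The log2 change was −0.15 ± 0.05 (edgeR adjusted p = 0.0227). That call was lost with DESeq2 (adjusted p = 0.0979), without replicate 1 (edgeR adjusted p = 0.0750) and with edgeR's current default fit (adjusted p = 0.0655).

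The STAT5 genes were lower in replicate 2 without passing the test. Stat5b had 344, 309, 329 and 333 normalized CPM, a log2 difference of −0.12 ± 0.05 (edgeR adjusted p = 0.0794), which passed when replicate 3 was left out (adjusted p = 0.0340). Stat5a had 734, 698, 731 and 747 normalized CPM, a log2 difference of −0.08 ± 0.04 (edgeR adjusted p = 0.220). For both genes replicate 2 lay below the range of the other libraries.

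Stat2 had 29.4, 25.1, 28.7 and 27.0 normalized CPM, with replicate 2 lowest. The log2 difference was −0.18 ± 0.10 (edgeR adjusted p = 0.206), as large as that of Stat6 with a wider error at its lower count. Stat3 had 755, 724, 721 and 727 normalized CPM, so that replicate 2 lay inside the range of the others, a log2 difference of −0.02 ± 0.04 (edgeR adjusted p = 0.797). Stat3 was the only member whose values overlapped. The other 5 of 6 lay below the range of the other 3 libraries, against 35% of all genes tested. Replicate 1 had 5 of 6 members outside the range of its other 3 libraries, all above it. The share over all genes was not taken there, so that count cannot be read as particular to the STAT genes.

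The departure of replicate 2 in other genes gives the scale of these differences. The Th17 cytokine genes Il17a and Il17f fell there, with log2 changes of −2.12 and −2.2 (edgeR adjusted p = 0.00169 and 1.8e-13). Of the 9 Th17 markers 6 were lower and 0 higher, and of the 9 pan-T cell markers 0 were lower and 3 higher. The NK cell list was summed at 61.8 TPM in replicate 2 and 6.64 to 8.65 TPM in the others, nearly all of it Eomes, which T cells also express, with Ncr1 at 0. Summed B cell markers were 1.75 to 2.16 TPM and summed myeloid markers 20.1 to 23.3 TPM over all libraries, with Adgre1 lower in replicate 2 (edgeR adjusted p = 0.0136). CD8 markers were summed at 31.6 TPM in replicate 2 against 41.7 to 48.0 TPM, with Cd8b1 lower (adjusted p = 0.00486). Stromal and epithelial markers were summed at 2.42 against 4.24 to 5.35 TPM, with Pdgfrb lower (adjusted p = 0.00153), and erythroid and platelet markers at 0.748 against 0.109 to 0.523 TPM. The part of cell composition in the STAT differences was not tested.

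Replicates 1, 3 and 4 gave no call among the STAT genes. In each of these comparisons edgeR called 0 of the 6 members and 0% of the 17337 genes, with 0 members at an unadjusted p under 0.05 and 0 called by DESeq2. Over all genes, 166, 257 and 128 had an unadjusted p under 0.05 for replicates 1, 3 and 4, and DESeq2 called 2, 15 and 3. The members' log2 differences ran from 0.02 to 0.12 in replicate 1, from −0.03 to 0.08 in replicate 3 and from −0.04 to 0.05 in replicate 4. These comparisons share libraries, as replicate 2 sits among the other 3 each time.

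**Figure D3:**
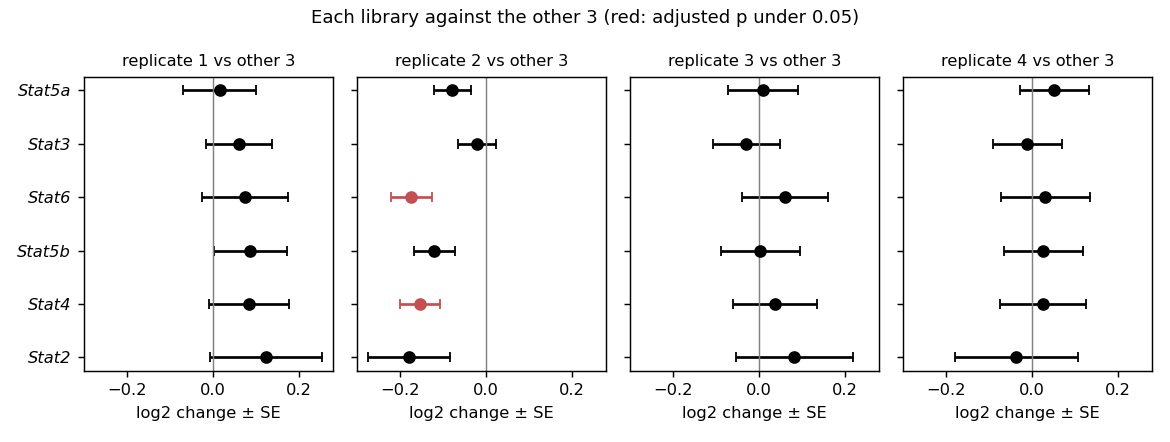
Log2 change of each STAT gene in each library against the other 3 (points, bars are the SE). Stat6 and Stat4 (red) passed the edgeR test in replicate 2 at −0.17 and −0.15, and no member passed in replicates 1, 3 and 4.

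The spread of the STAT genes over the 4 libraries was compared with that of all genes with a mean of at least 5 TPM, and then with the trend of spread over abundance. The coefficient of variation of TPM was 3.43% for Stat3, 4.91% for Stat5a, 6.35% for Stat5b, 7.22% for Stat4, 7.81% for Stat6 and 8.59% for Stat2. The median over those 10226 genes was 6.95%. The SD of log2 normalized CPM placed Stat3 at the 6.33rd percentile of those genes and Stat5a at the 12.5th, and the others between the 29.4th for Stat5b and the 51.7th for Stat2. Against genes of like abundance, 4 of the 6 members lay below the trend, with a quasi-dispersion of 0.188 times the trend for Stat3, 0.331 for Stat5a, 0.839 for Stat2 and 0.858 for Stat5b. Stat4 and Stat6 lay above it, at 1.15 and 1.52 times. In the test of that ratio, edgeR's quasi-dispersion called 0 of the 6 members and 0.0346% of all genes, 6 in number. The smallest unadjusted p of a member was 0.347, so 0 members had one under 0.05, while 1068 of all genes did. No second tool was run for the spread.

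For each member the pathway gene with the most similar course over the 4 libraries was found, as a description, by the root mean square difference of centred log2 CPM. Of 100 candidates, Cish, a feedback inhibitor induced by STAT5, was nearest to both Stat5b (0.0096) and Stat4 (0.021). Pias1, which encodes a protein inhibitor of STATs, was nearest to Stat3 (0.015), and Irf4, a factor T cells induce on activation, to Stat5a (0.018). Ptpn6, a phosphatase gene, was nearest to Stat6 (0.025) and Il10rb, an IL-10 receptor subunit gene, to Stat2 (0.036). Replicate 2 was the lowest point in 5 of the 6 members' courses, all but that of Stat3.

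The counts of pathway genes past the test in replicate 2 that follow stand against 11.7% higher and 10.9% lower over all genes tested, and 16.6% and 14.5% over genes of at least 5 TPM, where most of these lists lie. The kinases that phosphorylate STAT proteins were all expressed, with 4 of 4 above 1 TPM. Jak2, used by the IL-12 and IL-23 receptors, stood at 437, 299, 442 and 451 TPM in replicates 1 to 4 and was the most abundant. Replicate 2 lay far below the other libraries, a log2 change of −0.51 ± 0.04 (edgeR adjusted p = 2.99e-08). Tyk2 was higher there by 0.19 ± 0.05 (adjusted p = 0.00678), a call lost with DESeq2 (adjusted p = 0.0509). Jak1 at 179 ± 5.87 TPM and Jak3, the kinase of the common gamma chain, at 116 ± 2.01 TPM did not pass (log2 differences 0.0029 and 0.05).

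Receptors that signal mainly through STAT3 were present at 7 of 7 above 1 TPM, with 2 higher, 1 lower and 4 not past the test in replicate 2. Il21r, the IL-21 receptor gene, had 432 ± 18.8 TPM and rose by 0.18 ± 0.04 in log2, while Il6ra, the IL-6 receptor gene, had 8.75 ± 1.59 TPM and rose by 0.53 ± 0.10. Il23r, the receptor for IL-23, stood at 24.9, 17.7, 29.0 and 31.3 TPM, lowest in replicate 2, and fell by 0.62 on the log2 scale (edgeR adjusted p = 0.000865). Il27ra had 39.96 ± 1.89 TPM and did not pass. Receptor genes of the same STAT thus lay on both sides of 0.

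Receptors that signal mainly through STAT5 held 5 of 6 genes above 1 TPM, with 3 lower, 1 higher and 2 not past the test in replicate 2. Il2ra, the alpha chain that raises affinity for IL-2, stood at 979, 647, 973 and 964 TPM. Il2rb, the signalling beta chain, had 382 ± 99.9 TPM (431 ± 8.48 without replicate 2). Their log2 changes were −0.53 ± 0.04 and −0.83 ± 0.05 (edgeR adjusted p = 4.24e-09 and 1e-10), larger than any change of a STAT gene. Il2rg, the common gamma chain, moved the other way by 0.19 ± 0.05, and Il9r, at 1.08 ± 0.479 TPM, fell by 1.55 on the log2 scale.

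Receptors of the other members were fewer, and Il12rb1, listed for STAT4, encodes a chain that the IL-23 receptor shares. Of the IL-12 receptor genes for STAT4, Il12rb1 had 99.3 ± 7.65 TPM and rose in replicate 2 by 0.27 ± 0.05 in log2 (edgeR adjusted p = 0.000267), and Il12rb2 had 54.96 ± 5.11 TPM and did not pass. For STAT6, Il4ra, the IL-4 receptor gene, stood at 182, 183, 180 and 180 TPM and did not pass. Its partner chain Il13ra1 had 1.01 ± 0.564 TPM, with neither call on the level, and fell by 2.69. For STAT2, the type I interferon receptor genes Ifnar1 and Ifnar2 had 41.2 ± 1.05 and 21.4 ± 0.748 TPM, Ifnlr1 lay below 1 TPM, and 0 of the 3 passed in replicate 2.

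The cells also transcribed ligands of these receptors: 9 of the 16 genes lay above 1 TPM. Il2, which acts through STAT5, was the most abundant at 3043, 3204, 2933 and 3022 TPM. Il13, which acts through STAT6, had 456 ± 16.0 TPM, and Lif, which acts through STAT3, had 300.2 ± 22.5 TPM. In replicate 2 Il2 and Lif rose by 0.16 ± 0.04 and 0.24 ± 0.05 in log2. Il9, Il10 and Il23a fell, with log2 changes of −2.69, −2.23 and −1.31, and 8 of the 13 tested did not pass. The count of higher ligands was 4 instead of 2 both with no filter and without replicate 1. Ifnb1, Il7 and Il12a had 7, 6 and 1 counts over the 4 libraries and were not tested.

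Feedback inhibitors were present throughout. All 8 SOCS and CISH genes lay above 1 TPM, led by Cish at 141 ± 8.06, Socs3 at 122 ± 15.5 and Socs1 at 119 ± 24.2 TPM. Socs3, which dampens STAT3, stood at 120.1, 145, 111 and 112 TPM and was highest in replicate 2. Socs3 and Socs1 rose there by 0.40 ± 0.05 and 0.55 ± 0.11 in log2 (edgeR adjusted p = 3.98e-06 and 0.00179), and the other 6 did not pass. Of the list of PIAS and phosphatase genes 10 of 10 lay above 1 TPM, with Ptpn6 at 429 ± 29.9, Ptprc at 263 ± 9.22 and Ptpn1 at 214 ± 13.3 TPM. That list also held Usp18, an interferon response gene that is neither a PIAS nor a phosphatase gene. In replicate 2 Ptpn1 and Usp18 were higher by 0.22 ± 0.05 and 3.80 ± 0.23, Ptpn2 and Ptpn6 were lower by log2 changes of −0.26 and −0.14, and 6 did not pass.

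Of the 7 partners and coactivators of STAT proteins, 1 passed the test in replicate 2. All 7 lay above 1 TPM, among them Batf at 954 ± 35.3 and Irf4 at 279 ± 13.5 TPM, which encode factors that bind near STAT3 in Th17 cells, and the acetyltransferase gene Ep300 at 42.7 ± 1.92 TPM. Ncoa1, a coactivator gene, was the 1 that passed, with a log2 change of −0.22 ± 0.07 (edgeR adjusted p = 0.0239). That count of 1 was 0 with DESeq2 and without replicate 4, and 3 without replicate 3. Irf9, whose product joins STAT2 on DNA, had 20.1 ± 2.21 TPM, near the level of Stat2, and a log2 difference of −0.23 ± 0.09 (adjusted p = 0.0821).

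Genes known as targets of each STAT were then counted in the replicate 2 comparison, against 16.6% higher and 14.5% lower over genes of at least 5 TPM. These lists name textbook targets, overlap in part, and were not measured as bound here. Of 12 STAT3 targets 4 were higher, 6 lower and 2 did not pass. Il17f and Il17a fell as given above, Maf fell by 0.70 on the log2 scale, and Batf did not pass. The 4 higher, named after their values were seen, were Hif1a, Socs3, Bcl3 and Pim1, with log2 changes of 0.59, 0.40, 0.39 and 0.34. Of 10 STAT5 targets 4 were higher, 2 lower and 4 did not pass. The cell cycle gene Ccnd2 and the growth regulator Myc rose by 0.69 ± 0.04 and 0.40 ± 0.05, and Il2ra fell.

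Of 8 STAT4 targets 0 were higher, 5 lower and 3 did not pass, with a median log2 change of −0.96 against −0.01 over all genes. Tbx21, the Th1 master regulator gene, stood at 34.6, 12.7, 39.6 and 39.4 TPM. Tbx21 and Il18rap fell, with log2 changes of −1.51 and −1.77 (edgeR adjusted p = 4.53e-09 and 3.06e-11). Ifng, at 2.26 ± 1.25 TPM, fell by 2.13, and Gadd45g, at 38.9 ± 5.62 TPM, fell by 0.38. The Gadd45g call was lost with DESeq2 (adjusted p = 0.106), and the count of 5 was 4 with DESeq2 and without replicate 4. Furin at 372 ± 14.0 TPM and Il12rb2 did not pass. Of 8 STAT6 targets 0 were higher, 3 lower and 5 did not pass: Il24, Pparg and the chemokine receptor gene Ccr4 fell, with log2 changes of −1.20, −1.03 and −0.53, and Cish and Il4ra did not pass. In the same library 6 of the 9 Th17 markers were lower.

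Type I interferon response genes, bound by STAT2 with IRF9, were mostly scarce and moved both ways. Of 14 genes 8 lay above 1 TPM and 4 below. In replicate 2 the test called 3 higher and 5 lower, 6 did not pass, and the median log2 change was −1.03 (−0.97 with genes at 0 counts set at their bound). Oas1a, an antiviral gene, stood at 4.87, 109.6, 3.89 and 3.46 TPM and rose by 4.82 ± 0.12 (edgeR adjusted p = 1.04e-16). Usp18, which restrains the interferon receptor, stood at 3.26, 30.0, 1.77 and 1.76 TPM. Replicate 2 thus lay far above the other libraries for both genes, while Stat2 was lowest there.

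Bst2, the most abundant of the list at 231 ± 17.1 TPM, rose by 0.27 ± 0.06 in log2. Mx1 had 10, 0, 9 and 5 counts, which makes replicate 2 at least 2.83-fold lower when 0 is set at the floor of 3 counts in that library. The other 4 lower genes, named after their values were seen, were Isg15, Irf7, Ifit1 and Isg20, with log2 changes of −1.50, −1.03, −1.02 and −0.92. DESeq2 called 3 of the list as lower in place of 5: it gave Isg20 an adjusted p of 0.0605 and Mx1 none.

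**Figure D4:**
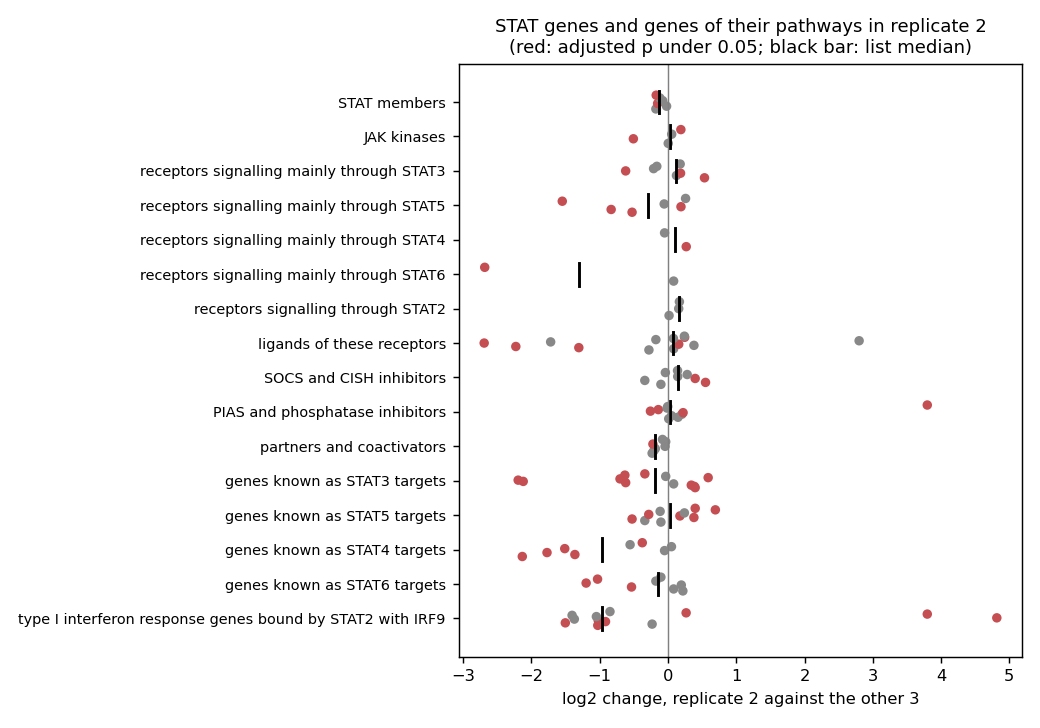
Log2 change in replicate 2 against the other 3 libraries for the STAT genes and 15 lists of genes of their pathways (1 point per gene, red where the edgeR adjusted p was under 0.05, black bar at the list median). The 6 STAT genes lie between −0.18 and −0.02, while Oas1a and Usp18 stand at 4.82 and 3.80; Mx1 and Ifi44, with 0 counts in replicate 2, are left out of the points.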

How the data were processed

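Per the file headers, featureCounts 1.4.6-p4 assigned reverse-stranded read pairs, both ends mapped, to GENCODE M13 genes; the labels name mm10. The authors deposited whole counts without normalization or pooling in a table for each library, beside the other value used, the summed exon length of a gene. The sources used here do not give the aligner version or trimming. The assay is named total RNA in the labels, while the linked library document names poly(A)+ RNA.

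All 4 libraries form 1 group, with replicate numbers from the labels. Symbols came from GENCODE vM21, and 50376 of 50600 identifiers matched. TPM was computed as count over length, scaled per library. Genes with at least 10 summed counts were tested in R 4.3.3 with edgeR 4.0.16 (quasi-likelihood, robust prior, TMM, log2 changes) and Benjamini-Hochberg adjustment over 17337 genes at 0.05: each level against 1 TPM in an intercept-only fit, each replicate against the other 3, and the spread against its trend. Standard errors were formed from the F statistic and the log2 change. Level differences between members used an exact sign-flip test. Scripts were tested on simulated data. Alternatives were DESeq2 1.42.0, size factors, filters, a level of 10 TPM, coding length, CPM and leaving out each replicate. Coding sequences were aligned with Biopython 1.88, from the GENCODE annotation on the mm10 genome. Precision is limited by 4 libraries and, for a gene with 0 counts, by a floor of 3 counts, or 0.0795 to 0.0906 CPM.

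The text names all 6 members, the 3 most abundant genes of each pathway list, up to 3 of those past the test in replicate 2 with the largest change, genes under 10 summed counts, and the gene nearest to each member. The members and lists were chosen with earlier results of these data known.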

Additional observations from a re-analysis of the deposited data

Results flagged for a closer look

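By TPM, replicate 2 was a low outlier for 2 of the 6 STAT genes. Stat4 stood at 81.3 TPM there and at 93.4 to 95.8 TPM in the other 3 libraries, so that the gap to the nearest library made up 0.840 of the whole range, above Dixon's critical value of 0.829 for 4 samples. Stat6 stood at 200.3 TPM in replicate 2 and at 234 to 237 TPM in the others, and the gap made up 0.906 of the range. The gap was 0.726 for Stat5a, 0.692 for Stat5b, 0.599 for Stat2 and 0.425 for Stat3, all below the critical value. On normalized CPM neither Stat4 (97.4 in replicate 2, 106.9 to 110.3 in the others) nor Stat6 (272.7, 303.6 to 310.7) reached that value. Of all 17337 genes tested, 3.96% had replicate 2 as a low outlier by this value, and of the 10226 genes with a mean of at least 5 TPM 5.87% did. Chance alone passes this value in about 5% of groups, counting a high or a low outlier in any of the 4 libraries. The 2 shares count only replicate 2 as the low outlier, so 5% is not their chance rate. The values of Stat4 and Stat6 come from the same library.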

How the results depend on the processing

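No paired analysis was possible because the libraries form 1 group. Of 805 recomputed values, 736 were close to the value reported: a tested value on the same side of 0 and of the threshold, a count within 1.5 times, or a level difference within 1 SD. Counts inside that limit still moved, as the 3907 genes of replicate 2 became 2843 with DESeq2 and 4341 without replicate 1. The count of genes that set replicate 1 apart was 0, and 2 with DESeq2, 0 to 68 when each other library was left out. For replicate 3 the count was 15 with DESeq2, 17 with no filter, 4 with edgeR's current default fit and 0 to 108 by leaving out libraries. For replicate 4 it was 3 with DESeq2 and 0 to 9 by leaving out libraries. The highest of each range came without replicate 2. The spread test called 0 genes with a prior that is not robust and 0 with a filter of 100 summed counts. Leaving out a library gave 0 to 79, the highest again without replicate 2. The smallest adjusted p of a member in that test was 0.992 over all alternatives.

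Some member differences near 0 changed sign when a library was left out. On the log2 scale this held in replicate 1 for Stat5a (−0.0090 to 0.038), and in replicate 3 for Stat4 (−0.012 to 0.075), Stat5a (−0.017 to 0.030) and Stat5b (−0.039 to 0.037). In replicate 4 it held for Stat2 (−0.11 to 0.0062), Stat3 (−0.024 to 0.010), Stat4 (−0.029 to 0.061), Stat5b (−0.017 to 0.063) and Stat6 (−0.031 to 0.064). None of these passed a test. By CPM, without length, Stat3 stood 0.0084 above Stat5a and Stat5b 0.14 above Stat6. By coding length these differences were 0.058 and 0.23, each the reverse of the order by TPM. The measures use the same counts, and within a library they differ only in the length that counts are divided by. A coding length from a RefSeq protein table was planned and not run, and the GENCODE coding length took its place. With 1 group and 4 libraries, an exact test cannot give a p below 0.125.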

Other observations

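The genes on either side of the Stat5b, Stat5a and Stat3 cluster on chromosome 11 were also compared in replicate 2. Ghdc, 9773 bases before Stat5b, had 32.2 ± 2.12 TPM (SD, n = 4) and was highest in replicate 2, with 31.2, 35.4, 31.1 and 31.1 TPM in replicates 1 to 4. Its log2 difference there was 0.24 ± 0.09 (SE; edgeR adjusted p = 0.0626). Cavin1, a gene of caveolar membranes 17192 bases beyond Stat3, had 30.1, 16.0, 26.1 and 30.9 TPM. It was lowest in replicate 2 and changed by −0.79 ± 0.11 on the log2 scale (adjusted p = 1.18e-05). The cluster genes between them stood at −0.12, −0.08 and −0.02 in the same comparison. Whether the neighbours differ from the cluster genes was not tested.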
